A study of Mus musculus with 9 samples.

Results

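The transcripts described here are those of Trp53, which encodes the tumour suppressor p53, of its negative regulators Mdm2 and Mdm4, and of 6 genes that p53 is known to switch on (Phlda3, Aen, Trp53inp1, Ccng1, Sesn2 and Zmat3), in haematopoietic stem and progenitor cells of a mouse model of myelodysplastic syndrome (MDS). They were chosen by name, as 9 of the 24060 named genes of the count table, and all 9 were among the 13355 genes with enough reads to be tested. RNA sequencing had been run on sorted LSKs, the lineage-low Sca1+ Kit+ fraction of bone marrow, to ask how overexpression of the RNA-binding protein MSI2 alters the progenitors of NUP98-HOXD13 (NHD13) mice. The libraries comprised 3 control, 2 NHD13 and 4 NHD13/MSI2 samples. Control marrow came from C57BL/6 mice. NHD13 marrow carried the NUP98-HOXD13 fusion, which the Vav promoter drives in blood cells, and NHD13/MSI2 marrow carried in addition KH2-Col1A1-tet-on-MSI2 and the ROSA26 reverse tetracycline transactivator, so that doxycycline turned MSI2 on. Marrow of all 3 groups had been transplanted into lethally irradiated congenic recipients, and MSI2 had been induced for 3 months. The labels give C57BL/6 as the strain, LSK as the cell type and 4 months as the age of all 9 samples. They also list 3 months of induction for all 9, control and NHD13 included. In the study the sequenced LSKs were taken 4 months after transplantation, and marrow donors were 3 to 4 months old. No group with MSI2 induced in the absence of NHD13 was analysed here.

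p53 is a transcription factor that damaged DNA, oncogene activity and faulty ribosome assembly bring into action, and it then switches on genes for cell cycle arrest, DNA repair, metabolism and cell death. It is controlled mainly as a protein: Mdm2, an E3 ubiquitin ligase, marks it for destruction, Mdm4 covers its activation domain, and Mdm2 is itself a p53 target, which closes a feedback loop. The level of Trp53 RNA therefore says little about p53 activity, and the RNAs of its targets are the usual readout. In blood, p53 restrains the self-renewal of stem cells and takes part in their quiescence.

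Promoter sequence is shown first, because p53 acts on its targets through a paired DNA element, each part of which consists of 3 purines, a core of C, A or T, A or T and G, and 3 pyrimidines. RefSeq promoter windows (250 bases before to 50 after the start of the gene, build GRCm38.p6) were at hand for 7 of the 9 genes. An exact half-element of 10 bases, searched on both strands, lay in the windows of 4 genes (Trp53, Mdm2, Aen and Ccng1), and 8.36% of 32851 promoter windows of all genes held one. The half-elements are in capitals below, with 25 bases on either side, each read along the strand of its gene.
Trp53 (chr11:69580259-69580318, plus strand): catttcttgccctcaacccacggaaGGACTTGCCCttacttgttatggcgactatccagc
Mdm2 (chr10:117710910-117710969, minus strand): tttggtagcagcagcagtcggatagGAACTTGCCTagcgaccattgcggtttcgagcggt
Aen (chr7:78895912-78895971, plus strand): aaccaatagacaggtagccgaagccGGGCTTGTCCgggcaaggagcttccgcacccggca
Ccng1 (chr11:40755437-40755496, minus strand): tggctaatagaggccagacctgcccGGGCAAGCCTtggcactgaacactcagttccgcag
The half-element began 75 bases upstream of the annotated start in Trp53, 186 in Mdm2 and 185 in Ccng1. Aen has 2 annotated starts, and the same half-element lay 121 bases upstream of 1 of them and began 11 bases into the transcript from the other. The windows of Mdm4, Phlda3 and Sesn2 held no exact half-element. None of the 7 genes had a paired element with both cores intact (up to 2 mismatches outside the cores and a spacer of 0 or 1 base, found in 0.32% of promoter windows). Pairs with a mismatch in a core were not counted. Ccng1 has such a pair: the 10 bases directly before its half-element (agacctgccc) match the element apart from 1 core base. That pair lay outside the search, and near misses in the windows of the other genes were not counted. These are matches of letters within the windows only, and binding was not measured.

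Depth was alike across the libraries, between 19242153 and 23013493 reads on named genes, with a median of 20318252. Levels are given as CPM, the reads of a gene relative to all reads of its library, scaled by the trimmed mean of M-values (TMM). Within groups, r of log2 CPM across genes lay between 0.972 and 0.979 for controls and between 0.970 and 0.973 for NHD13/MSI2 replicates 1 to 3. By r the 2 NHD13 libraries were the least alike pair within a group, at 0.937. Replicate 4 of NHD13/MSI2 had an r between 0.943 and 0.949 with the others of its group. Its TMM factor was 0.785, against 0.969 to 1.09 elsewhere. Control replicates 1 and 3 held 888 and 866 CPM of Xist, and control replicate 2 and the other 6 libraries held at most 2.33 CPM, with Y-linked Uty between 102 and 144 CPM in those 7. Y-linked Eif2s3y lay between 122 and 180 CPM in the same 7. Y-linked Ddx3y differed among them, with 229 CPM in control replicate 2, 172 and 250 CPM in NHD13, and 3.83, 5.98, 17.6 and 5.52 CPM in NHD13/MSI2. All 3 controls are labelled LSK, but replicate 1 was named as bulk and the other two as MPP_HSC libraries. Msi2 did not follow the labels: 223, 316 and 266 CPM in controls, 139 and 111 CPM in NHD13, and 88.0, 77.1, 82.8 and 241 CPM in the libraries labelled NHD13/MSI2, so the directions below rest on the labels. Whether reads of the MSI2 transgene would be counted on the mouse gene is not given in the sources used here. Hoxd13, which the fusion contains, was at 0 counts in all 3 controls and between 0.648 and 1.13 CPM in the other 6 libraries.

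Other cell types were checked by marker genes, since LSKs are a mixture, and in bulk RNA fewer cells of a type and less RNA per cell cannot be told apart. The 7 LSK markers summed to between 4700 and 5330 CPM in controls, 2690 and 3340 CPM in NHD13 and 2300 and 3030 CPM in NHD13/MSI2. Of these, the stem cell marker Slamf1 lay between 12.6 and 30.2 CPM in controls and between 0.0499 and 1.86 CPM in NHD13/MSI2. Ly6a, which encodes the Sca1 of the sort, went the other way, with 79.3 to 89.8 CPM in controls, 48.3 to 69.0 CPM in NHD13 and 98.6 to 375 CPM in NHD13/MSI2. The neutrophil list (7 of 8 genes measured) summed to 8430 to 14400 CPM in NHD13/MSI2, 2210 to 4180 CPM in controls and 3140 to 4430 CPM in NHD13. Mpo, a granule enzyme of early myeloid cells, was most of the sum in NHD13/MSI2 and NHD13 (7840 to 13900 CPM in NHD13/MSI2 against 1200 to 1860 CPM in controls). In control replicate 2, Mpo stood at 1590 CPM beside 1180 CPM of Ngp. Of the other 6 genes, S100a8, S100a9, Ngp, Camp and Ltf lay below all controls in every NHD13/MSI2 library, and Elane overlapped. The 6 B cell markers summed to between 262 and 448 CPM in NHD13/MSI2, 81.9 and 127 CPM in NHD13 and 45.7 and 57.5 CPM in controls, with Cd79a, Cd79b and Pax5 above both other groups in NHD13/MSI2 (Cd79a at 125 to 261 CPM against 0.285 to 3.11 CPM in controls) and Ms4a1 at or below 0.931 CPM in every library. Monocyte and dendritic markers (7 genes) overlapped between control (205 to 999 CPM) and NHD13/MSI2 (511 to 1140 CPM), with 151 to 344 CPM in NHD13, but Csf1r of that list did not overlap between groups (9.02 to 15.5 CPM in controls, 94.9 to 122 CPM in NHD13 and 281 to 473 CPM in NHD13/MSI2). T cell markers (6 of 7 measured) were highest in NHD13, at 200 to 203 CPM against 37.7 to 50.3 CPM in controls and 50.6 to 86.5 CPM in NHD13/MSI2, almost all of it Lck. Erythroid (7 genes, 0.549 to 16.1 CPM over all libraries, with Hba-a1 and Hba-a2 at 0), megakaryocyte (6 genes, 16.4 to 46.5 CPM in NHD13/MSI2, 81.4 to 225 CPM in controls and 87.0 to 707 CPM in NHD13) and stromal and endothelial lists (7 genes, 155 to 181 CPM in controls, 317 to 347 CPM in NHD13 and 444 to 587 CPM in NHD13/MSI2, nearly all Pecam1, with Cdh5 under 1 CPM) completed the check. The part of these shifts in the results below was not tested.

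Across the 9 genes, 1 passed the threshold of an adjusted p under 0.01 in any comparison: Trp53inp1, which rose 1.69-fold in NHD13/MSI2 over control (4.49% of all genes were called higher there). None passed in NHD13/MSI2 over NHD13 or in NHD13 over control. These counts of 0 of 9, 1 of 9 and 0 of 9 stand beside 3.17%, 11.0% and 1.03% of all 13355 genes in the same order of comparisons (NHD13/MSI2 over NHD13, then over control, then NHD13 over control), by the quasi-likelihood test of edgeR, adjusted after Benjamini and Hochberg. At an unadjusted p under 0.05 the counts were 2, 2 and 1 of 9, against 21.7%, 32.8% and 13.5% of all genes. DESeq2 called 1 of the 9 (Zmat3) in NHD13/MSI2 over NHD13, 1 (Trp53inp1) over control and 0 in NHD13 over control, beside 9.63%, 19.4% and 4.45% of all genes. The 3 comparisons share libraries and are not independent. The median log2 fold change of the 9 genes was 0.09, 0.22 and 0.26 in the same order, beside -0.03, -0.01 and 0.02 over all genes tested.

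**Figure D1:**
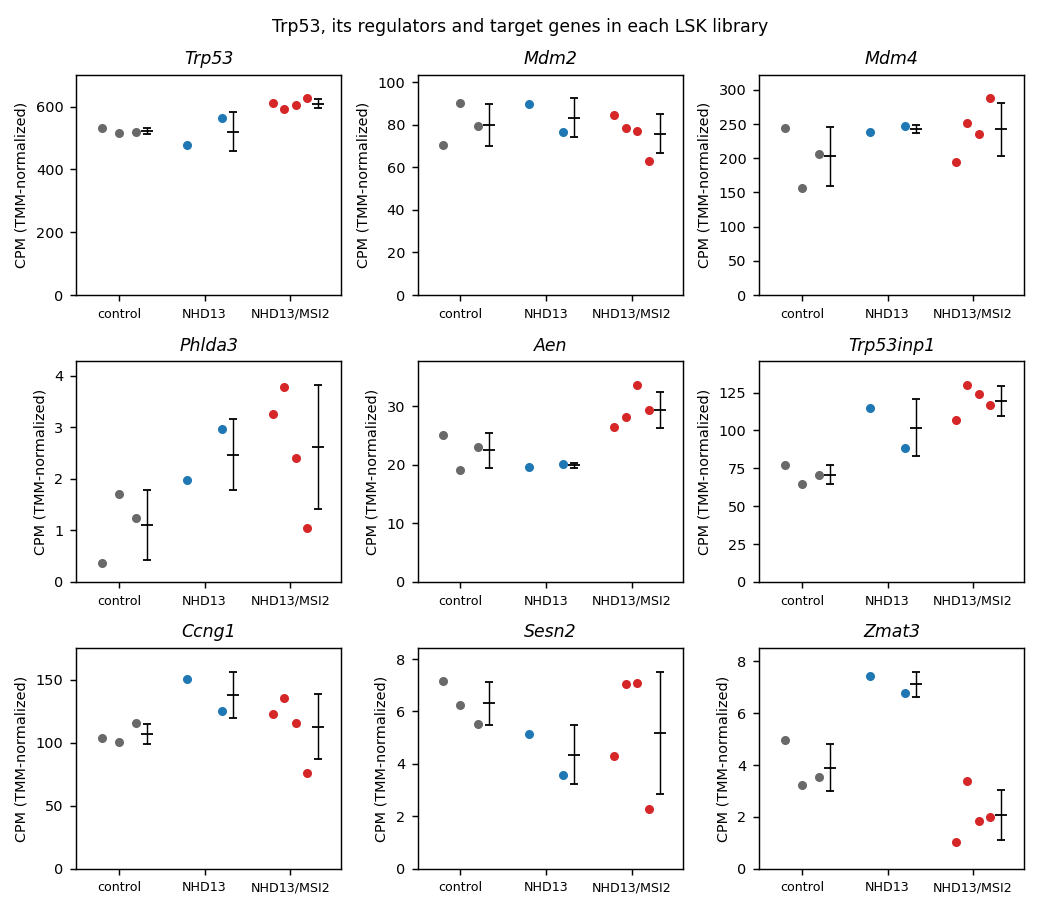
TMM-normalized CPM (vertical axes, from 0) of the 9 genes in each library, as 1 point per library for 3 control, 2 NHD13 and 4 NHD13/MSI2 samples, with the mean and SD of each group to its right. Trp53inp1 lay between 64.5 and 77.0 CPM in controls and between 107 and 130 CPM in NHD13/MSI2, while Mdm2, Ccng1 and Sesn2 overlapped between NHD13/MSI2 and both other groups.

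Trp53 was by far the most abundant of the 9 transcripts and varied little. Its level was 532, 515 and 519 CPM in controls, 477 and 564 CPM in NHD13, and 612, 593, 606 and 627 CPM in NHD13/MSI2. All 4 NHD13/MSI2 libraries lay above all the others, whereas the NHD13 libraries fell on either side of the controls. The difference did not pass the test: the log2 fold change was 0.23 (SE 0.14, adjusted p = 0.415, edgeR's quasi-likelihood test) over NHD13 and 0.22 (SE 0.13, adjusted p = 0.258) over control. It shrank to 0.03 and 0.01 when libraries were scaled by their totals without TMM factors. For NHD13 over control it was 0.00 (95% interval -0.34 to 0.34). Trp53-ps, an annotated processed pseudogene of Trp53, was not analysed here, and how reads shared with it were counted is not given, so the level of Trp53 is uncertain to that extent.

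Mdm2, the ubiquitin ligase and feedback target, did not differ between groups beyond their spread. It stood at 70.6, 90.2 and 79.2 CPM in controls, 89.8 and 76.8 CPM in NHD13, and 84.7, 78.3, 77.0 and 63.2 CPM in NHD13/MSI2. The ranges of the 3 groups overlapped, and replicate 4 of NHD13/MSI2 was the lowest library. Mdm2 had a log2 fold change of -0.14 in NHD13/MSI2 over NHD13 (95% interval -0.51 to 0.24), -0.08 over control (-0.41 to 0.26) and 0.06 in NHD13 over control (-0.34 to 0.46), with adjusted p of 0.705, 0.766 and 0.969 by edgeR's quasi-likelihood test.

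Mdm4, which binds p53 without degrading it, varied more among controls (203 ± 43.8 CPM, SD, n = 3) than Mdm2 did (80.0 ± 9.84 CPM), and no comparison passed. Its levels were 244, 157 and 207 CPM in controls, 239 and 247 CPM in NHD13, and 194, 252, 235 and 288 CPM in NHD13/MSI2. Control replicate 2 was the lowest library and replicate 4 of NHD13/MSI2 the highest, and the groups overlapped. Mdm4 had a log2 fold change of -0.01 (SE 0.21) in NHD13/MSI2 over NHD13, 0.26 (SE 0.19) over control and 0.26 (SE 0.22) in NHD13 over control, with adjusted p of 0.994, 0.385 and 0.75 in edgeR's quasi-likelihood test. None of the 18 refits under other settings or without a library made a call for Mdm4. An annotated pseudogene, Mdm4-ps, was not analysed here and leaves the same doubt as Trp53-ps does for Trp53.

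Among the targets that restrain growth or promote death, Trp53inp1 encodes a stress-induced nuclear protein that helps p53 to direct apoptosis and takes part in autophagy. Its level was 77.0, 64.5 and 70.6 CPM in controls, 115 and 88.4 CPM in NHD13, and 107, 130, 124 and 117 CPM in NHD13/MSI2. Every NHD13 and NHD13/MSI2 library lay above every control, and those of NHD13 and NHD13/MSI2 overlapped. The rise over control was 0.76 on the log2 scale in NHD13/MSI2 (SE 0.14, 95% interval 0.44 to 1.08, adjusted p = 0.00532, edgeR's quasi-likelihood test). The value in NHD13 over control was 0.52 (SE 0.17, unadjusted p = 0.0114, adjusted p = 0.169) and in NHD13/MSI2 over NHD13 it was 0.24 (SE 0.16, adjusted p = 0.456). The joint test of the 3 groups gave an adjusted p of 0.0143, with 8.90% of all genes past the threshold.

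The call of Trp53inp1 in NHD13/MSI2 over control was lost in several refits, although the log2 fold change remained between 0.54 and 0.93 in the 18 of them. The adjusted p was 0.0161 without control replicate 1, 0.0295 without control replicate 2, 0.0286 without control replicate 3, 0.0163 without NHD13/MSI2 replicate 2 and 0.0162 without NHD13/MSI2 replicate 3. With control replicate 2, the only control low in Xist, as the sole control, the log2 fold change was 0.93 (adjusted p = 0.104). Scaling by library totals without TMM factors gave 0.54 (adjusted p = 0.0427), and the replicate number as a block gave 0.77 (adjusted p = 0.0113). DESeq2 gave 0.75 (adjusted p = 1.48e-05).

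Aen, an exonuclease that takes part in the breakdown of DNA during apoptosis, was 25.1, 19.1 and 23.1 CPM in controls, 19.6 and 20.2 CPM in NHD13, and 26.4, 28.2, 33.6 and 29.3 CPM in NHD13/MSI2. The 4 NHD13/MSI2 libraries were again above all the others, and NHD13 lay within the control range. The log2 fold change of NHD13/MSI2 was 0.56 over NHD13 (95% interval 0.14 to 0.99, unadjusted p = 0.0145, adjusted p = 0.109) and 0.39 over control (0.02 to 0.75, adjusted p = 0.132), neither past the threshold in edgeR's quasi-likelihood test. Over the 18 refits the value over NHD13 lay between 0.36 and 0.63, and the adjusted p between 0.0298 and 0.351. Aen in NHD13 over control had a log2 fold change of -0.18 (SE 0.19, adjusted p = 0.85).

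Phlda3, whose product holds back the kinase AKT at the membrane, was close to the limit of what these libraries resolve. It reached 0.368, 1.71 and 1.24 CPM in controls (9, 36 and 31 reads), 1.98 and 2.96 CPM in NHD13 (43 and 60 reads), and 3.26, 3.79, 2.40 and 1.04 CPM in NHD13/MSI2 (63, 76, 53 and 16 reads). Both NHD13 libraries were above the controls, and replicate 4 of NHD13/MSI2 fell among the controls. For Phlda3 the log2 fold change was 1.25 (95% interval -0.17 to 2.67, adjusted p = 0.205) in NHD13/MSI2 over control and 1.16 (-0.46 to 2.78, adjusted p = 0.593) in NHD13 over control by edgeR's quasi-likelihood test, intervals that hold both no change and a change of over 4-fold. Between NHD13/MSI2 and NHD13 it was 0.09 (-1.46 to 1.64, adjusted p = 0.962).

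Of the targets with roles in the cell cycle, stress and RNA, Ccng1 encodes cyclin G1, which recruits a phosphatase to Mdm2. Ccng1 stood at 104, 101 and 116 CPM in controls, 151 and 125 CPM in NHD13, and 123, 136, 116 and 76.1 CPM in NHD13/MSI2. The NHD13 libraries were above the controls, and NHD13/MSI2 spread across both, with replicate 4 the lowest of all 9 libraries. Its log2 fold change was 0.37 (SE 0.23, adjusted p = 0.6) in NHD13 over control, 0.08 (SE 0.20, adjusted p = 0.83) in NHD13/MSI2 over control and -0.29 (SE 0.22, adjusted p = 0.503) in NHD13/MSI2 over NHD13, by edgeR's quasi-likelihood test. The value in NHD13/MSI2 over control was 0.23 without replicate 4 of that group and -0.12 by library totals without TMM factors.

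Sesn2, a stress sensor that lowers mTORC1 signalling, was at 7.16, 6.26 and 5.52 CPM in controls, 5.15 and 3.56 CPM in NHD13, and 4.29, 7.03, 7.10 and 2.27 CPM in NHD13/MSI2. Both NHD13 libraries were below the controls, and NHD13/MSI2 covered the range of both groups, with replicate 4 lowest. On the log2 scale the fold change was -0.53 (95% interval -1.64 to 0.58) in NHD13 over control, -0.28 (-1.19 to 0.63) in NHD13/MSI2 over control and 0.25 (-0.80 to 1.30) in NHD13/MSI2 over NHD13, and the adjusted p was 0.792, 0.68 and 0.816 in edgeR's quasi-likelihood test.

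Zmat3, an RNA-binding zinc finger protein that acts in splicing downstream of p53, had the widest range of group means of the 9 genes, 1.84 on the log2 scale. Its levels were 4.95, 3.23 and 3.52 CPM in controls, 7.45 and 6.77 CPM in NHD13, and 1.03, 3.39, 1.86 and 2.01 CPM in NHD13/MSI2. Like those of Phlda3 they rest on few reads: 121, 68 and 88 in controls, 162 and 137 in NHD13, and 20, 68, 41 and 31 in NHD13/MSI2. The NHD13 libraries were above all the others, and NHD13/MSI2 replicate 2 reached into the control range. The mean in NHD13/MSI2 (2.07 ± 0.978 CPM, SD, n = 4) stood below that in NHD13 (7.11 ± 0.483 CPM, SD, n = 2), by 3.42-fold in the fit, with a log2 fold change of -1.77 (SE 0.45, unadjusted p = 0.00323) and an adjusted p of 0.0411 by edgeR's quasi-likelihood test, short of the threshold. DESeq2 placed it past the threshold (-1.76, adjusted p = 0.00451), and over the other refits the adjusted p ranged up to 0.195, the value without NHD13 replicate 1. The log2 fold change was -0.91 in NHD13/MSI2 over control (95% interval -1.84 to 0.02, adjusted p = 0.162) and 0.87 in NHD13 over control (-0.23 to 1.96, adjusted p = 0.528).

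**Figure D2:**
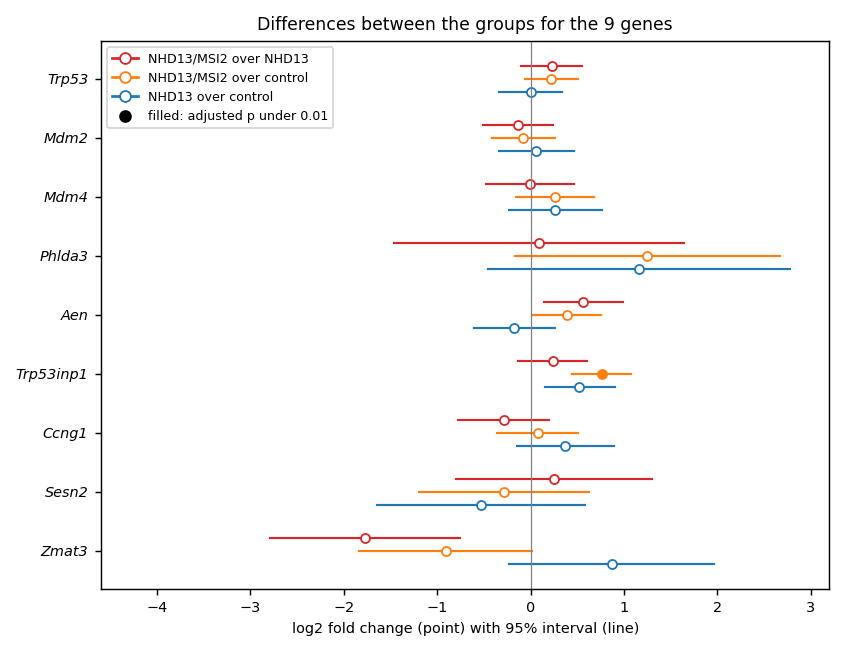
Log2 fold change (horizontal axis) of the 9 genes in the 3 comparisons (colours), with 95% intervals from the quasi-likelihood fit as lines and filled points for an adjusted p under 0.01. The 1 filled point is Trp53inp1 in NHD13/MSI2 over control (0.76), and the intervals of Phlda3, Sesn2 and Zmat3, the genes of lowest level, are the widest.

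Counted by ranges that do not overlap, 3 of 9 genes separated in NHD13/MSI2 over NHD13 (Trp53 and Aen above, Zmat3 below), where 29.9% of all genes did (13.0% above and 16.9% below). Over control 3 of 9 separated, Trp53, Aen and Trp53inp1, all above, beside 35.7% of all genes (15.3% above). Between NHD13 and control 5 of 9 separated, Phlda3, Trp53inp1, Ccng1 and Zmat3 above and Sesn2 below, beside 37.4% of all genes (18.9% above and 18.5% below). With 2 NHD13 libraries such separation is frequent, and none of the 5 passed the test in NHD13 over control. The signs were mixed: in NHD13/MSI2 over NHD13, 5 fold changes were positive and 4 negative, and in each of the other comparisons 6 were positive and 3 negative.

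Per kilobase of the principal transcript, which allows levels to be compared between genes, Trp53 stood far above the rest. Control means were 295 ± 4.97 CPM per kilobase for Trp53 (SD, n = 3), 30.5 ± 2.26 for Ccng1, 28.5 ± 6.17 for Mdm4, 25.8 ± 3.18 for Mdm2 and 13.1 ± 1.15 for Trp53inp1. Aen followed with 4.53 ± 0.618, Sesn2 with 1.82 ± 0.236, Phlda3 with 0.77 ± 0.474 and Zmat3 with 0.50 ± 0.118 CPM per kilobase. The neighbours Ccng1, Mdm4 and Mdm2 overlapped in their libraries (28.8 to 33.0, 22.1 to 34.4 and 22.8 to 29.1 CPM per kilobase), as did Phlda3 and Zmat3, and the other neighbours did not overlap. In NHD13/MSI2 the order of the means was the same apart from exchanges of Ccng1 (32.1) with Mdm4 (34.1) and of Sesn2 (1.49) with Phlda3 (1.83), and within both pairs the libraries overlapped. Lengths came from GENCODE M21, and with the union of all exons as the length Trp53 stood at 129 CPM per kilobase in controls. The order also depended on the length used. With the union, Mdm2 (15.7) stood above Mdm4 (13.7) in controls. In NHD13/MSI2, Trp53inp1 (18.5) then stood above Mdm4 (16.4) and Mdm2 (14.9), and Ccng1 (32.1) above all 3.

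The positions of the genes on GRCm38 in GENCODE M21, which is not the mm9 build that the submitters name, place Trp53 at chr11:69580359-69591873 and Ccng1 on the same chromosome at chr11:40748552-40755311 (minus strand). Mdm2 lies at chr10:117688875-117710758 (minus strand), Mdm4 at chr1:132959484-133030561 (minus strand) and Phlda3 at chr1:135766119-135769136. Aen lies at chr7:78895854-78911209, Trp53inp1 at chr4:11156431-11174379, Sesn2 at chr4:132492032-132510501 (minus strand) and Zmat3 at chr3:32334792-32366014 (minus strand). The values are sums over each gene, and no exon or isoform was resolved. Mdm4 and Sesn2 overlap another annotated gene (Gm29257 and Gm12981), in neither case with shared exons.

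The genes whose levels followed a member most closely over the 9 libraries were found by the root mean square difference of centred log2 CPM, among 10971 genes with a mean of at least 50 counts. For Trp53 (SD 0.14 over the libraries) they were Lsg1 (0.05), Cpsf6 (0.05) and Aco1 (0.06). For Mdm2 (SD 0.16) they were Stard7 (0.05), Psmg2 (0.07) and Atp6v1f (0.07). For Zmat3 (SD 0.89) they were Il31ra (0.27), Elovl7 (0.33) and F2rl2 (0.37). Trp53 and Mdm2 were so level that a small difference from them is common to genes that vary little.

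The wider p53 pathway was described with 44 further target genes in 4 lists, 25 regulators of p53 and Mdm2, and 16 cell cycle genes that p53 lowers through p21 and the DREAM complex. Of the 44 targets 43 were tested. Between NHD13/MSI2 and control 4 rose (Pmaip1, Bax, Xpc and Cd82) and 2 fell (Perp and Ndrg1), 6 of 43 beside 11.0% of all genes (4.49% higher and 6.55% lower), and the median of their log2 fold changes was -0.03 beside -0.01. Between NHD13/MSI2 and NHD13, Cd82 rose and Slc19a2 fell, beside 3.17% of all genes (0.584% higher and 2.58% lower), with a median of 0.08 beside -0.03. Pmaip1 rose in NHD13 over control, beside 1.03% of all genes (0.824% higher), with a median of 0.18 beside 0.02. Calls thus fell on both sides of 0 in both comparisons of NHD13/MSI2. By library totals without TMM factors Bax and Cd82 were lost over control, which left 2 higher and 2 lower. With control replicate 2 as the sole control the 6 genes of NHD13/MSI2 over control had the same sign, and their adjusted p lay between 0.024 (Pmaip1) and 0.178 (Bax). In that fit the lone control is assumed to vary like the other groups.

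**Figure D3:**
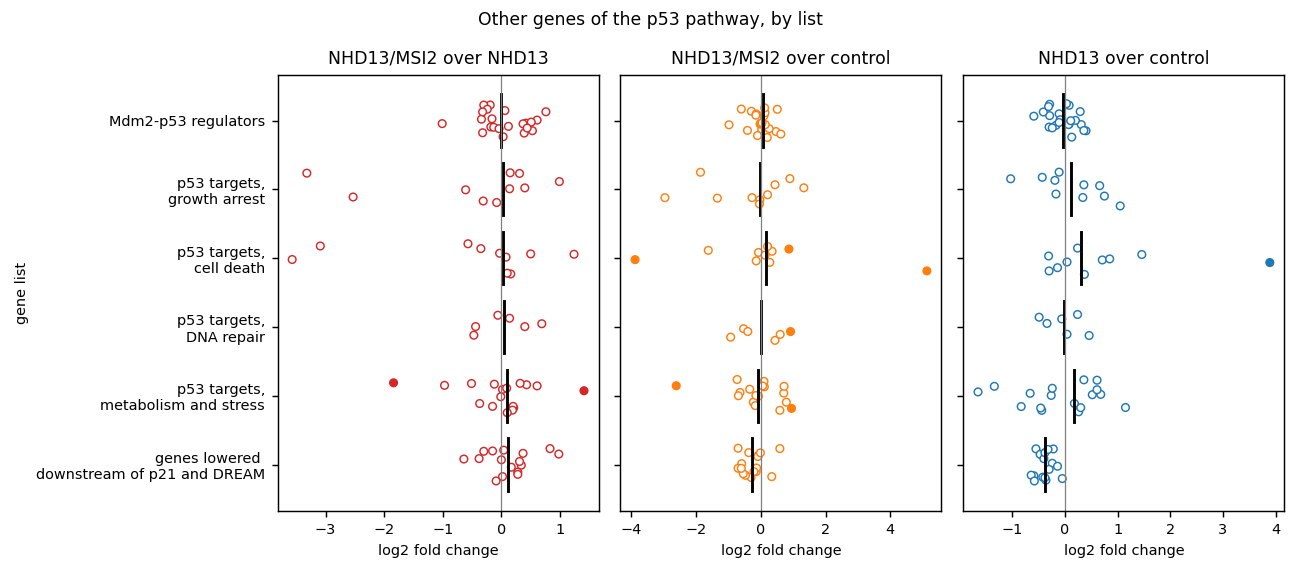
Log2 fold change (horizontal axes) of each tested gene of the p53 pathway lists in the 3 comparisons, with list medians as black bars and filled points for an adjusted p under 0.01; Trp63, at 3 counts or fewer in every control and NHD13 library, is left out. Filled points lie on both sides of 0 in NHD13/MSI2 over control (4 higher and 2 lower), and the 16 genes downstream of p21 and DREAM lie below 0 in NHD13 over control.

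In the cell death list of 10 targets, Pmaip1 and Bax rose and Perp fell in NHD13/MSI2 over control. Pmaip1 encodes Noxa, a BH3-only protein that inhibits MCL1. It was at 2.25, 1.90 and 1.88 CPM in controls, 21.6 and 38.1 CPM in NHD13, and 42.5, 53.7, 64.5 and 121 CPM in NHD13/MSI2. The 3 groups did not overlap, and the order was control, NHD13, NHD13/MSI2. The rise was 34.9-fold in NHD13/MSI2 over control (log2 5.13, SE 0.44, adjusted p = 0.000112) and 14.8-fold in NHD13 over control (log2 3.89, SE 0.45, adjusted p = 0.00196), and in NHD13/MSI2 over NHD13 the log2 fold change was 1.24 (SE 0.42, adjusted p = 0.11), all by edgeR's quasi-likelihood test. The call of Pmaip1 over control held in all 9 fits that left out a library for NHD13/MSI2 (log2 4.74 to 5.32), but had an adjusted p of 0.024 with control replicate 2 as the sole control. For NHD13 it was lost without control replicate 1 (adjusted p = 0.0146), control replicate 2 (0.0155), control replicate 3 (0.0178) or NHD13 replicate 2 (0.0115).

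Bax, the pore-forming protein of the mitochondrial death pathway, was at 32.1, 30.5 and 27.3 CPM in controls, 41.3 and 36.4 CPM in NHD13, and 60.0, 63.3, 55.1 and 41.1 CPM in NHD13/MSI2. Controls were lowest, and replicate 4 of NHD13/MSI2 came down to the level of NHD13. The rise over control was 1.83-fold (log2 0.87, SE 0.17, adjusted p = 0.00678 in edgeR's quasi-likelihood test). Bax missed the threshold by library totals without TMM factors (log2 0.68, adjusted p = 0.0558), and it also did so without control replicate 1 (0.0231), control replicate 2 (0.0288), control replicate 3 (0.0386) or NHD13/MSI2 replicate 1 (0.0178), replicate 2 (0.0186) or replicate 3 (0.0182).

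Perp, a membrane protein of desmosomes that p53 can use in apoptosis, was at 3.97, 7.88 and 6.08 CPM in controls, 2.35 and 7.31 CPM in NHD13, and 0, 0.399, 0.452 and 0.779 CPM in NHD13/MSI2. All 4 NHD13/MSI2 libraries lay below the others. The fall over control was 3.88 on the log2 scale (a log2 fold change of -3.88, SE 0.83, adjusted p = 0.00922 in edgeR's quasi-likelihood test). The call was lost without control replicate 1 (0.023), 2 (0.038) or 3 (0.0317), NHD13 replicate 2 (0.0102) or NHD13/MSI2 replicate 2 (0.0282) or 3 (0.0261). Bbc3, which encodes the death activator PUMA, had 4 to 28 reads a library and a log2 fold change of 0.35 (95% interval -1.29 to 1.99) in NHD13/MSI2 over control; it was named after its values were seen.

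In the growth arrest list, 0 of 10 genes passed in any comparison. The 2 of lowest p were Plk2 and Ptpn14. Plk2, a stress-induced kinase, was at 20.2, 4.84 and 3.92 CPM in controls, 25.3 and 5.29 CPM in NHD13, and 1.50, 2.64, 0.86 and 5.71 CPM in NHD13/MSI2, with a log2 fold change of -2.53 in NHD13/MSI2 over NHD13 (SE 0.88, adjusted p = 0.123, edgeR's quasi-likelihood test). Ptpn14, a phosphatase that restrains YAP, was at 6.22, 0.902 and 4.72 CPM in controls, 6.53 and 3.61 CPM in NHD13, and 0, 0, 1.40 and 0.584 CPM in NHD13/MSI2, with a log2 fold change of -3.32 (SE 1.28, adjusted p = 0.16) over NHD13. At an unadjusted p under 0.05 there were 2 genes in NHD13/MSI2 over NHD13, 3 over control and 1 in NHD13 over control, of 10 each, beside 21.7%, 32.8% and 13.5% of all genes.

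Cdkn1a, the p21 inhibitor of cyclin-dependent kinases and the best known p53 target, was added after its values were seen. It was at 6.17, 12.9 and 5.80 CPM in controls, 10.3 and 24.0 CPM in NHD13, and 12.6, 11.5, 10.8 and 10.1 CPM in NHD13/MSI2. Control replicate 2 and NHD13 replicate 2 were the high libraries of their groups, and the 3 ranges overlapped. The log2 fold change was 1.05 (SE 0.43, unadjusted p = 0.0368, adjusted p = 0.318) in NHD13 over control, 0.44 (SE 0.37, adjusted p = 0.458) in NHD13/MSI2 over control and -0.61 (SE 0.41, adjusted p = 0.442) in NHD13/MSI2 over NHD13, by edgeR's quasi-likelihood test.

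In the DNA repair list of 6 targets, Xpc, which recognizes distorted DNA in nucleotide excision repair, was the 1 gene to pass. It stood at 107, 129 and 116 CPM in controls, 137 and 140 CPM in NHD13, and 238, 213, 229 and 211 CPM in NHD13/MSI2. All 4 NHD13/MSI2 libraries were above the others by a wide margin. The rise was 1.90-fold over control (log2 0.92, SE 0.12, adjusted p = 0.00103, edgeR's quasi-likelihood test), and it passed in all 9 fits that left out a library (log2 0.86 to 1.00), with an adjusted p of 0.105 when control replicate 2 was the sole control. Over NHD13 the log2 fold change was 0.69 (adjusted p = 0.0183). Ddb2, the partner damage sensor of the same pathway, was named after its values were seen and had a log2 fold change of -0.53 over control (SE 0.24, adjusted p = 0.149).

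In the list of metabolism and stress targets (17 of 18 tested, Gdf15 untested), Cd82 and Slc19a2 passed in NHD13/MSI2 over NHD13, and Cd82 and Ndrg1 over control. Cd82, a tetraspanin of the cell surface that takes part in stem cell quiescence, was at 70.1, 55.7 and 53.7 CPM in controls, 49.8 and 37.2 CPM in NHD13, and 103, 96.8, 118 and 147 CPM in NHD13/MSI2. The NHD13/MSI2 libraries were above and the NHD13 libraries below all controls. The rise was 2.66-fold over NHD13 (log2 1.41, SE 0.23, adjusted p = 0.00645, edgeR's quasi-likelihood test) and 1.94-fold over control (log2 0.95, SE 0.19, adjusted p = 0.00717). Over NHD13 the call of Cd82 remained only in the fit without NHD13/MSI2 replicate 4, and the adjusted p in the other 8 fits without a library lay between 0.0106 (without NHD13/MSI2 replicate 2) and 0.041 (without NHD13 replicate 2). Over control it was lost without control replicate 1 (0.0151), 2 (0.0366) or 3 (0.0407) or NHD13/MSI2 replicate 1 (0.012) or 3 (0.0193), and by library totals without TMM factors (log2 0.72, adjusted p = 0.0133).

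Slc19a2, a thiamine transporter, was at 4.05, 5.36 and 7.08 CPM in controls, 11.3 and 13.2 CPM in NHD13, and 2.95, 2.89, 3.89 and 3.89 CPM in NHD13/MSI2. The NHD13 libraries were highest and those of NHD13/MSI2 lowest, without overlap of the groups, an order shared with Zmat3 in its group means. The log2 fold change in NHD13/MSI2 over NHD13 was -1.84 (SE 0.31, adjusted p = 0.00765, edgeR's quasi-likelihood test), and among the 9 fits without a library it passed only without NHD13/MSI2 replicate 4 (0.0074), with up to 0.0383 (without NHD13 replicate 2) in the others.

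Ndrg1, a stress-responsive gene that hypoxia also induces, was at 114, 165 and 87.7 CPM in controls, 35.5 and 42.6 CPM in NHD13, and 11.5, 12.6, 16.6 and 39.5 CPM in NHD13/MSI2. Controls were highest, and replicate 4 of NHD13/MSI2 lay within the NHD13 range. The log2 fold change over control was -2.61 in NHD13/MSI2 (SE 0.43, adjusted p = 0.00259, edgeR's quasi-likelihood test), lost without control replicate 1 (0.0101) or 2 (0.0124), and -1.65 in NHD13 (SE 0.53, adjusted p = 0.172).

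**Figure D4:**
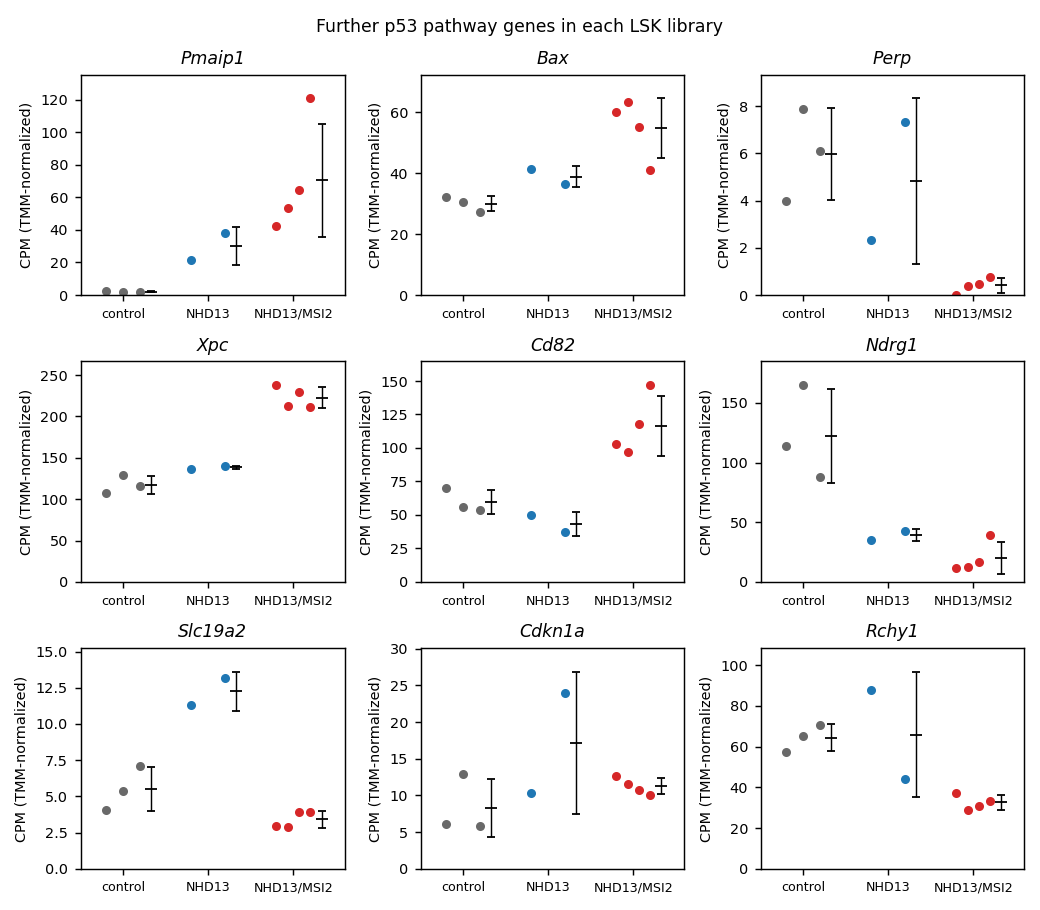
TMM-normalized CPM (vertical axes, from 0) of 9 further genes of the p53 pathway in each library, as 1 point per library, with the mean and SD of each group to its right. Pmaip1 lay between 1.88 and 2.25 CPM in controls and between 42.5 and 121 CPM in NHD13/MSI2, whereas Perp and Ndrg1 were lower in NHD13/MSI2 than in controls and Cdkn1a overlapped.

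Among the regulators of p53 and Mdm2, 23 of 25 were tested (Cdkn2a, which encodes the Mdm2 inhibitor ARF, and Trp73 were not), and 0 passed in any comparison by edgeR's quasi-likelihood test. Over control, library totals without TMM factors called Rchy1 and Chek1 lower in NHD13/MSI2, DESeq2 called Rchy1 and Atr lower, and the fit without NHD13/MSI2 replicate 4 called Chek1 and Atm lower. Rchy1 was also called lower over control without NHD13 replicate 1, without NHD13 replicate 2 or with the compared groups alone, and over NHD13 by DESeq2 and without NHD13 replicate 2. Atm and Chek1 are kinases of the DNA damage response. At an unadjusted p under 0.05 there were 4 of 23 in NHD13/MSI2 over NHD13, 5 over control and 0 in NHD13 over control, beside 21.7%, 32.8% and 13.5% of all genes. The 2 of lowest p were Rchy1 and Atr. Rchy1, which encodes the ubiquitin ligase PIRH2 that also targets p53, was at 57.5, 65.3 and 70.4 CPM in controls, 87.7 and 44.2 CPM in NHD13, and 37.4, 28.9, 30.9 and 33.2 CPM in NHD13/MSI2. The 4 NHD13/MSI2 libraries were the lowest, with a log2 fold change of -0.98 over control (SE 0.22, adjusted p = 0.0122) and -1.01 over NHD13 (SE 0.24, adjusted p = 0.0335). Atr, the kinase that signals stalled replication, was at 121, 119 and 105 CPM in controls, 106 and 111 CPM in NHD13, and 91.2, 88.3, 86.2 and 80.9 CPM in NHD13/MSI2. Its log2 fold change was -0.41 over control (SE 0.11, adjusted p = 0.0323).

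The 16 cell cycle genes downstream of p21 and DREAM, such as Cdk1 and Ccnb1 of the mitotic kinase and Foxm1, the transcription factor of the G2 and M phases, gave 0 calls in any comparison by edgeR's quasi-likelihood test. As cell cycle genes can move together, the signs of the 16 are not independent. The part of p53 in them was not tested. All 16 of 16 in NHD13 over control had a negative log2 fold change, with a median of -0.38 beside 0.02 over all genes, and 5 had an unadjusted p under 0.05, beside 13.5% of all genes. Without control replicate 2 these were 14 of 16, with a median of -0.31 and 0 at an unadjusted p under 0.05. Over control, NHD13/MSI2 had 14 of 16 negative, with a median of -0.26 and 6 at an unadjusted p under 0.05, beside 32.8% of all genes. By library totals without TMM factors that median was -0.46, with 8 at an unadjusted p under 0.05 and Chek1 called lower, as it also was without NHD13/MSI2 replicate 4. Over NHD13 it had 11 of 16 positive with a median of 0.10, which became -0.08 by library totals without TMM factors. The 2 of lowest p were Chek1, the checkpoint kinase downstream of Atr (log2 fold change -0.60 in NHD13/MSI2 over control, SE 0.19, adjusted p = 0.0522), and Cdk1. Cdk1 was at 131, 176 and 146 CPM in controls, 102 and 98.7 CPM in NHD13, and 109, 112, 112 and 68.1 CPM in NHD13/MSI2, with a log2 fold change of -0.59 in NHD13/MSI2 over control (SE 0.19, adjusted p = 0.0605).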

How the data were processed

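RNA of sorted LSKs was measured in 9 libraries. The authors deposited whole-number read counts per gene symbol, without normalization or pooling. The submitters' processing notes name STAR, HTSeq, DESeq and mm9, without role or version. In the table of 24073 lines the 11942 names after the March genes stood 2 lines too high, which the counts alone showed: 57 of 75 ribosomal protein genes (76.0%) had at least 1000 counts in every library after a move by 2 lines, against 54.7% to 64.0% after moves by 0, 1, 3 or 4. The names were moved accordingly, and 13 lines among the March genes (0.0253% to 0.0323% of a library) stayed unnamed and were left out.

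Counts of 13355 genes kept by filterByExpr were scaled by TMM and fitted in all 9 libraries with the quasi-likelihood method of edgeR 4.0.16 (R 4.3.3, prior degrees of freedom 3.38), with group as the factor and Benjamini-Hochberg adjustment over all genes. The threshold was an adjusted p under 0.01, with the q-value cut of the study as its model. Intervals are 95% intervals of the fit. The script was tested on simulated data. Library totals give a floor of 3 counts, 0.13 to 0.156 CPM before TMM scaling, which covers counting error only. Replicates are as the labels number them. The study gives these group sizes for transplanted animals, but the labels tie no library to a mouse, and where libraries share one, p-values measure only a spread that may be technical. Chi-square per gene between libraries of a group was beyond counting noise. It lay between 381 and 408 for pairs with NHD13/MSI2 replicate 4 and between 18.2 and 73.4 for all other pairs.

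The 9 genes, the pathway and marker lists and the tests were chosen with earlier results of these data known. Named genes are the 9 genes in full, the genes of each list past the threshold, and otherwise the 2 of lowest p. Cdkn1a, Bbc3, Ddb2, Atm, Hoxd13, Eif2s3y and Ddx3y were added after their values were seen. Tigar was matched as 9630033F20Rik, and Trac and Ly6g were not matched. Alternatives were a robust fit, DESeq2 1.42.0, RLE factors, library totals without TMM, no count filter or 1 at a mean of 50 counts, a threshold of 0.05, a block for the replicate number, the compared groups alone, control replicate 2 as the sole control, and each library left out in turn. Promoter windows are from RefSeq, and gene positions and lengths from GENCODE M21.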

Additional observations from a re-analysis of the deposited data

How the results depend on the processing

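Counts of the 9 genes past the threshold in NHD13/MSI2 over NHD13 were 0, but 1 (Zmat3) with DESeq2 and 1 at an adjusted p under 0.05. In NHD13/MSI2 over control the count of 1 (Trp53inp1) became 0 by library totals without TMM factors, with the replicate block and with control replicate 2 as the sole control, and ranged from 0 to 1 without a library. In NHD13 over control it was 0 in every alternative. Pathway calls in NHD13/MSI2 over NHD13 were 2, but 5 with DESeq2, 5 at an adjusted p under 0.05, 1 with the replicate block, 0 with the compared groups alone, 0 with the sole control, and 0 to 5 without a library. In NHD13/MSI2 over control they were 6, 0 with the sole control and 2 to 10 without a library (10 without NHD13/MSI2 replicate 4), and in NHD13 over control 1, 0 with the sole control and 0 to 1 without a library. The cause was not tested. Over all genes, calls ranged from 30 (compared groups) to 1286 (DESeq2), around 423, in NHD13/MSI2 over NHD13, from 95 (sole control) to 2589 (DESeq2), around 1474, over control, and from 7 (sole control) to 594 (DESeq2), around 138, in NHD13 over control. Library totals without TMM moved the median of all genes to -0.22 in both comparisons of NHD13/MSI2, and the share of lower calls from 81.6% to 90.4% over NHD13 and from 59.4% to 73.0% over control. By totals the mean of Trp53 was 560 CPM in control and 562 CPM in NHD13/MSI2, that of Mdm4 258 CPM and that of Aen 21.1 CPM in NHD13.

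Changes of sign concerned log2 fold changes that never passed the threshold. For NHD13/MSI2 over NHD13, Mdm2 ranged from -0.20 to 0.01 without a library, Mdm4 from -0.08 to 0.11 and Phlda3 from -0.15 to 0.45; Mdm4 was 0.01 with DESeq2, RLE factors or the filter at 50 counts and 0.03 with the sole control, and Phlda3 was -0.07 by library totals without TMM. Over control, Mdm2 ranged from -0.16 to 0.02 and Ccng1 from -0.01 to 0.23, with -0.12 by totals without TMM. For NHD13 over control, Trp53 ranged from -0.14 to 0.11, Mdm2 from -0.05 to 0.16 and Perp from -1.35 to 0.30, and with the sole control Trp53 was 0.02, Mdm2 -0.11 and Aen 0.06.

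Libraries of like replicate number had an r of deviations between -0.07 and 0.19. Deviations are taken from group means, so the 2 NHD13 libraries mirror each other (r of -1). These values therefore cannot decide whether the number pairs libraries. With the replicate number as a block, calls over all genes went from 423 to 203 in NHD13/MSI2 over NHD13, 1474 to 1407 over control and 138 to 101 in NHD13 over control. Trp53inp1 over control then had an adjusted p of 0.0113 in edgeR's quasi-likelihood test. Phlda3 had under 100 reads in every library.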
